A study of Mus musculus with 2 samples.

Results

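Nesprins, SUN proteins, lamins and the lamin B receptor build the nuclear envelope and tie it to the cytoskeleton and to chromatin. Their 9 genes (Syne1, Syne2, Syne3, Sun1, Sun2, Lmna, Lmnb1, Lmnb2 and Lbr) were followed here in the mouse retina at postnatal day 14. They were chosen by name, for known ties to nuclear position and inverted chromatin in photoreceptors, with the Syne3 difference between these arrays already known. Every non-control probe whose RefSeq accession maps to one of them was taken, which gave 13 probes in 22 spots, of 55669 probes and 20659 named genes in all. Syne1, Syne2, Sun1 and Lbr had 2 probes each and the other 5 genes had 1.

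RNA of whole retina, dissected at postnatal day 14, was hybridised to 2 one-colour Agilent arrays, 1 labelled Mef2d KO and 1 wild type (WT). The product of Mef2d is a MEF2 transcription factor, and the comparison asks how retinal expression differs without it. The Mef2d allele, the strain, the sex and the number of animals behind each array are not given in the labels. Each group is a single array, so differences could not be checked against replicates and carry no p-value.

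Nesprins are spectrin-repeat proteins of the outer nuclear membrane that bind the cytoskeleton in the cytoplasm. Their KASH tails bind SUN proteins of the inner membrane, and the joined pair is called the LINC complex. Lamins form the meshwork under the inner membrane, and the lamin B receptor holds peripheral heterochromatin to it. In mice, nesprin-2 with SUN1 and SUN2 is known to be needed to place photoreceptor nuclei in the outer nuclear layer. Mouse rods are known for inverted nuclei, with heterochromatin at the centre, and lack both the lamin B receptor and lamin A/C in the adult.

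Signals are given as the scanner's background-subtracted intensity, or as a level, the log2 intensity relative to the array's 75th percentile (858 on the array labelled Mef2d KO, 807 on the WT array). A difference is the level on the array labelled Mef2d KO minus that on the WT array. The error after ± is that of the scanner software's model for a difference between 2 spots, about 0.20 for most probes, and it leaves out variation between animals. A gene with 2 probes is represented by the brighter one. A gene was called higher or lower when it was at least 2-fold apart. Levels of different probes cannot be set against each other, so only differences are compared between genes.

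Some facts of both arrays bear on every value below. The probes of Mef2d itself differed by 0.43 ± 0.20 and 0.14 ± 0.21, neither of them lower. They check nothing, since the allele is not given and their place relative to any changed stretch is unknown here. Xist, the noncoding RNA that silences an X chromosome in female cells, was, by its brighter probe, not well above background in WT and was higher by at least 52.6-fold on the other array. The Y-linked genes Ddx3y, Eif2s3y, Kdm5d and Uty were read on both arrays, with differences between -0.76 and -0.36. Genotype and sex make-up therefore cannot be told apart. The share of probe spots well above background was 69.6% on the array labelled Mef2d KO and 75.5% on the WT array.

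All 13 probes of the nuclear envelope genes were well above background on both arrays. None of their spots was saturated or marked as an outlier. Of the 9 genes, 1 was at least 2-fold higher and 0 were at least 2-fold lower. Of the 16187 genes read well above background by both arrays, 0.618% were at least 2-fold higher and 1.74% at least 2-fold lower. Because the genes were picked with these results known, nothing is read from their share. The median difference of the 9 genes was -0.065, against -0.0060 for all genes. With scaling to the array median these medians were 0.11 and 0.17, so differences of this size have no settled sign.

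**Figure D1:**
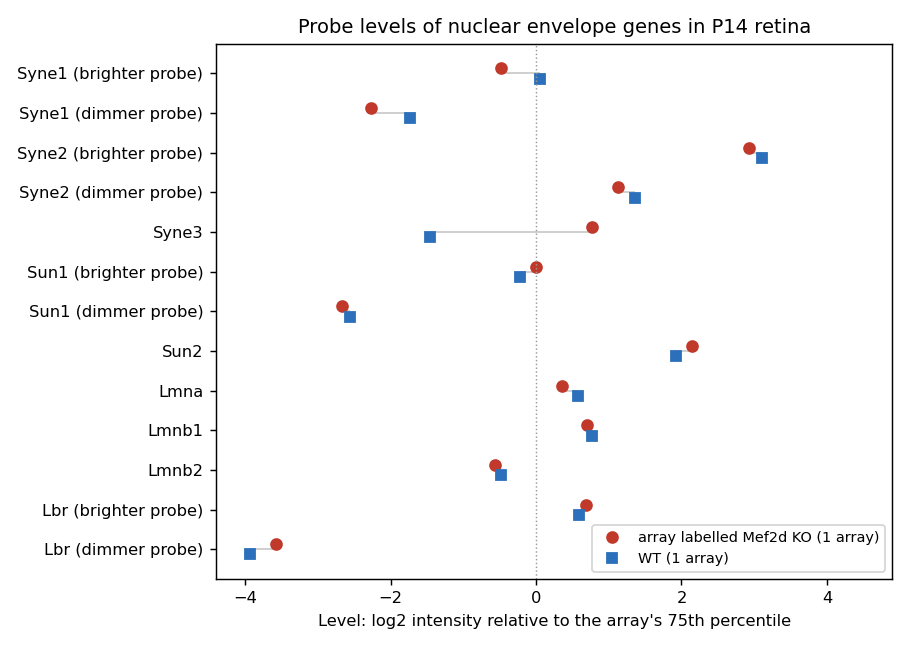
Level of each of the 13 probes (log2 intensity relative to the array's 75th percentile, dotted line at 0) on the array labelled Mef2d KO (circles, upper) and on the WT array (squares, lower), 1 array each. The Syne3 pair spans 2.23 on this scale, while the other 12 pairs lie within 0.55 of each other.

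Among the nesprins, Syne3 stood apart. It encodes nesprin-3, which binds plectin and through it intermediate filaments. Its only probe gave an intensity of 1461 on the array labelled Mef2d KO and 293 on the WT array. In levels these were 0.77 on the array labelled Mef2d KO and -1.46 on the WT array. The difference was 2.23 ± 0.20, so the Mef2d KO-labelled array was 4.69-fold higher. Syne3 held place 10 from the top among the 16187 genes.

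The unprocessed image gave a like picture. The median pixel signal of the Syne3 spot was 1356.5 on the array labelled Mef2d KO and 330.5 on the WT array, over local backgrounds of 38 and 40. Both spots thus stood several-fold above their surroundings. The 6 spots nearest to it on the slide had differences from -0.41 to 0.34 with a median of -0.0057, and none of them was 2-fold apart. Quantile normalization put the Syne3 difference at 2.25, cyclic loess at 2.23 and normexp background correction, which compresses dim signals, at 1.92. It was 2.41 with median scaling, under which the median of all genes was 0.17.

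Promoters are shown for Syne3, the gene past the limit, and for its fellow nesprin genes, because Mef2d acts as a DNA-binding factor. Each is the 250 bases before an annotated transcript start in RefSeq for GRCm38.p6, at chr12:104998678-104998927 on the minus strand for Syne3, chr10:5488315-5488564 on the minus strand for Syne1 and chr12:75818068-75818317 on the plus strand for Syne2. Syne1 has 3 such windows, and the one with a match is shown. Which start is used in retina was not measured. Capitals mark a match, on either strand, to TAAAAATA or TATTTATA, inner letters of the MEF2 site, or to TAATCC, the core bound by the photoreceptor factor CRX.
Syne3: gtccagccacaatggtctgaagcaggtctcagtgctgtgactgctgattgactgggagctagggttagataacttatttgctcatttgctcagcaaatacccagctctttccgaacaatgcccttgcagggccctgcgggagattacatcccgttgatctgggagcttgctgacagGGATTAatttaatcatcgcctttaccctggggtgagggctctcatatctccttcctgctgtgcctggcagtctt
Syne1: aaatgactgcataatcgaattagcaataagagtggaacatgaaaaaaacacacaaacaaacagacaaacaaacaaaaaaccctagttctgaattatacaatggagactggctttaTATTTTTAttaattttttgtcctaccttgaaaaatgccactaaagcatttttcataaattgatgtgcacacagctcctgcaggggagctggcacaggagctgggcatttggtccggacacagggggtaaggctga
Syne2: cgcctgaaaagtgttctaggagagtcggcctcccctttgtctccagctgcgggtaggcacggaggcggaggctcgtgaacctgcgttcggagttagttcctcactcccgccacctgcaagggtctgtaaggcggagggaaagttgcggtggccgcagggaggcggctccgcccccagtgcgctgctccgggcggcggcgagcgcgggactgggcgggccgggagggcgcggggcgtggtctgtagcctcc
The Syne3 window held TAATCC on the opposite strand, 74 bases before the start, and none of the MEF2 letters. The Syne1 window held TAAAAATA on the opposite strand, 135 bases before the start. The Syne2 window held none of these motifs. Windows for 8 of the genes, 13 in all, were used here, and none for Lmnb1. Among these 13, TAAAAATA was in 2 (one each of Syne1 and Lmna), TATTTATA in 0 and TAATCC in 2 (Syne3 and one of Sun1). Over all 32851 windows of this length the shares were 2.45% for TAAAAATA, 1.56% for TATTTATA and 6.25% for TAATCC. The full MEF2 consensus, whose matches can overlap the first 2 motifs, was in 0 of the 13 windows and in 2.92% of all. The Syne3 window held 4 CpG sites and 51.2% G and C, and the Syne2 window 26 CpG sites and 70.0% G and C, against medians of 6 CpG sites and 52.4% over all windows. A match describes letters and is not a site of binding.

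The genes beside Syne3 on chromosome 12 stayed within 2-fold. Clmn, the measured neighbour on one side, differed by -0.075 ± 0.20 and Snhg10, on the other, by 0.040 ± 0.20. The 6 nearest measured genes, among them Dicer1 (0.031) and Glrx5 (0.063), ranged from -0.075 to 0.30. The highest of these was the dim Tcl1b2 (0.30 ± 0.32).

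Syne1 encodes nesprin-1, a giant protein that binds actin and is known for anchoring nuclei in muscle and for a role in the cerebellum. Its brighter probe gave an intensity of 616 on the array labelled Mef2d KO and 835 on the WT array. The dimmer probe gave 178 on the array labelled Mef2d KO and 244 on the WT array. Their differences of -0.53 ± 0.20 and -0.55 ± 0.21 were alike, 0.020 ± 0.29 apart, which is 1.44-fold and 1.46-fold lower and within the 2-fold limit. Across the 4 other ways of processing shown in the plot of differences the brighter probe stayed between -0.53 and -0.35 and the dimmer one between -0.47 and -0.37. The 6 nearest measured genes on chromosome 10 ranged from -0.25 to 0.13.

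Syne2 encodes nesprin-2, the nesprin tied to photoreceptor nuclear position in mice. The brighter of its probes gave an intensity of 6539 on the array labelled Mef2d KO and 6987 on the WT array. The other gave 1874 on the array labelled Mef2d KO and 2072 on the WT array. The differences were -0.18 ± 0.20 and -0.23 ± 0.20, about the size of the error, and with median scaling they were -0.0048 and -0.054. Like those of Syne1, the Syne2 probes were close to each other, 0.049 ± 0.29 apart.

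Contrasts between genes of the same arrays do not depend on a constant scaling factor. The Syne3 difference exceeded that of Syne2 by 2.41 ± 0.29, and that of Syne1 by 2.76 ± 0.29. These gaps were 2.11 and 2.43 with normexp background correction. The difference of Syne1 lay 0.34 ± 0.29 below that of Syne2, little more than the error.

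**Figure D2:**
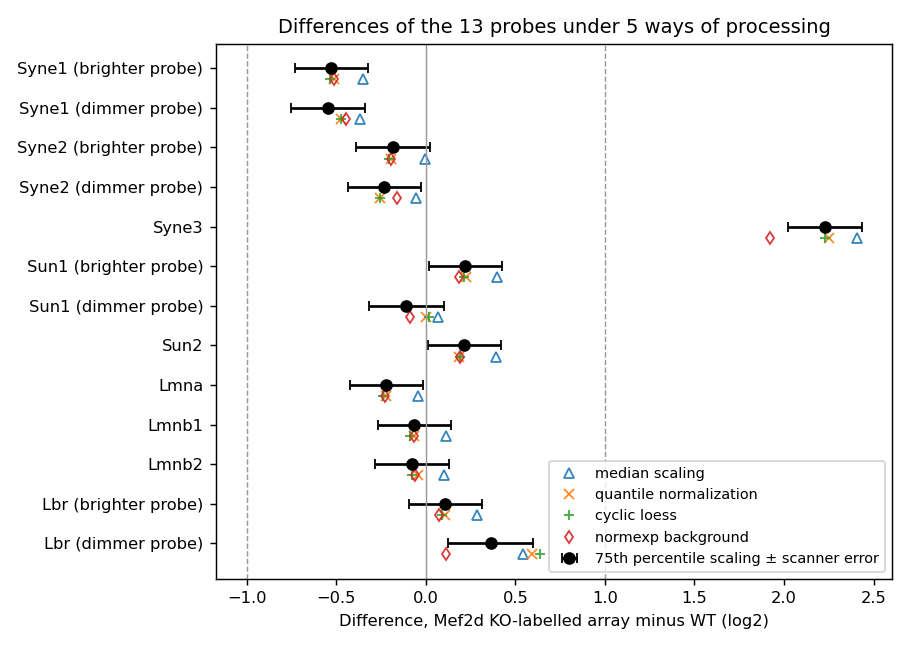
Difference of each probe (log2, array labelled Mef2d KO minus WT) with the scanner's error as the bar, and the same difference under 4 other ways of processing as smaller marks just below. Dashed lines mark 2-fold. Syne3 stays between 1.92 and 2.41, and the other 12 probes stay within 2-fold.

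The SUN proteins are the inner partners of the nesprins. Sun1 gave an intensity of 860 on the array labelled Mef2d KO and 694 on the WT array by its brighter probe. The dimmer probe gave 135 on the array labelled Mef2d KO and 137 on the WT array. The differences were 0.22 ± 0.20 and -0.11 ± 0.21, so the probes were of opposite sign and 0.33 ± 0.29 apart. The sign of the dimmer probe was positive with quantile normalization (0.0018), cyclic loess (0.018) and median scaling (0.070).

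Sun2, whose protein binds the same KASH tails, was read by 1 probe at an intensity of 3778 on the array labelled Mef2d KO and 3064 on the WT array. Its difference was 0.21 ± 0.20, and 0.19 whether values were quantile normalized, loess normalized or normexp corrected. The brighter Sun1 probe and the Sun2 probe differed by nearly the same amount, with a gap of -0.0066 ± 0.29. Neither passed 2-fold, and each difference was about as large as its error. With median scaling they were 0.40 for the brighter Sun1 probe and 0.39 for Sun2, beyond the error and still within 2-fold. That scaling raises all genes alike, and the median of all genes was then 0.17.

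The lamins stayed within 2-fold. Lmna encodes lamins A and C, the lamins of differentiated cells. Its probe gave an intensity of 1100 on the array labelled Mef2d KO and 1205 on the WT array, a difference of -0.22 ± 0.20. That difference was -0.042 with median scaling. Lmnb2, which encodes a B-type lamin that stays bound to the membrane, gave 581 on the array labelled Mef2d KO and 577 on the WT array. Its difference was -0.077 ± 0.20, and it was 0.10 with median scaling.

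Lmnb1 encodes the other main B-type lamin, and its probe is printed in 10 spots on each array, which shows the scatter between spots. The spot intensities ran from 1287 to 1479 with a median of 1406 on the array labelled Mef2d KO, and from 1294 to 1494 with a median of 1375 on the WT array. The ranges of the arrays overlapped over most of their length. The level was 0.70 ± 0.057 on the array labelled Mef2d KO and 0.77 ± 0.060 on the WT array (SD, n = 10 spots of 1 array). Spot by spot the difference ran from -0.13 to 0.036, with a mean of -0.065 and an SD of 0.058, and it was negative at 8 of the 10 positions. With median scaling the Lmnb1 difference was 0.11, so its sign is set by the scaling. These spots share 1 RNA and are no replicates of the genotype.

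**Figure D3:**
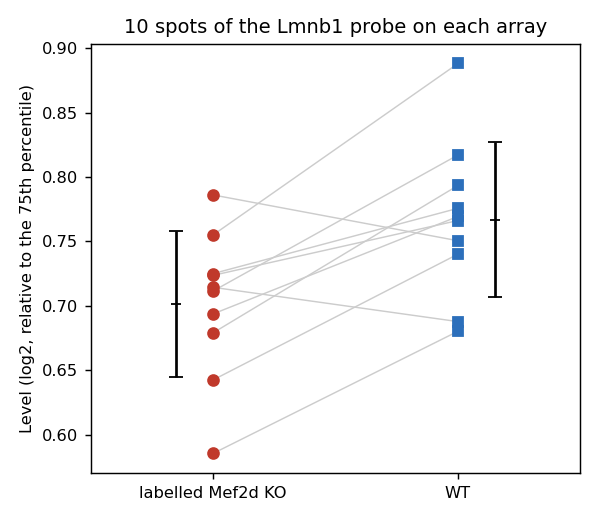
Level of each of the 10 Lmnb1 spots (log2, relative to the array's 75th percentile) on the array labelled Mef2d KO (left) and the WT array (right). Lines join the same position of both arrays, and the bars beside the points give the mean and SD over spots. The SDs of 0.057 and 0.060 are about the size of the difference between the means.

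The spread of the Lmnb1 spots is of the usual size for such levels. Over 258 probes with 3 or more spots and a mean level above -3, the median SD of the difference between arrays was 0.062, and over 141 dimmer ones it was 0.39. Of the 13 nuclear envelope probes, the dimmer Lbr probe alone lies at or below that level. With 75th percentile scaling the Syne1 differences are larger than that spot error, and so are those of other genes here, such as Syne2, Sun2 and Lmna. With median scaling Syne2 (-0.0048 by its brighter probe) and Lmna (-0.042) lie within it. The spot error is scatter among spots that share 1 RNA per array, and it is smaller than the scanner's error of about 0.20. Of the 16187 genes read on both arrays, 6.35% had a lower difference than Syne1. Variation between animals was not measured.

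Lbr encodes the lamin B receptor, which also acts as a sterol reductase. The brighter probe gave an intensity of 1388 on the array labelled Mef2d KO and 1211 on the WT array. The dimmer probe gave 72.3 on the array labelled Mef2d KO and 53.0 on the WT array. The differences were 0.11 ± 0.20 and 0.36 ± 0.24, both within 2-fold. That of the dimmer probe ranged from 0.12 with normexp background correction to 0.64 with cyclic loess. Lbr and Lmna, the 2 ways by which peripheral heterochromatin is held in mouse cells, had differences 0.33 ± 0.29 apart, Lbr above Lmna.

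**Figure D4:**
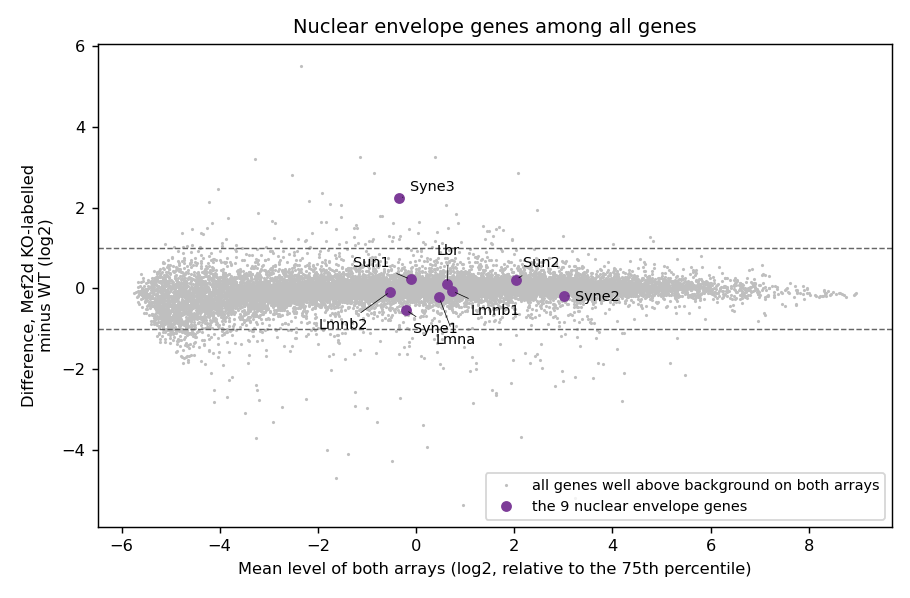
Difference (log2, array labelled Mef2d KO minus WT) against the mean level of both arrays for the 16187 genes read well above background by both, with the 9 nuclear envelope genes named. Dashed lines mark 2-fold. Syne3 lies at 2.23 and the other 8 genes lie between -0.53 and 0.22.

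Other genes of the nuclear envelope and of nuclear movement were looked at as 5 lists. Of 44 listed genes 43 were well above background on both arrays, and 0 were 2-fold higher and 0 were 2-fold lower, against 2.35% of all genes 2-fold apart in either direction. Their median difference was 0.023, and 0.20 with median scaling. Cenpf, a kinetochore protein that also links dynein to the envelope, was not well above background on either array.

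Among 6 other LINC genes the median difference was -0.22, the lowest of the 5 lists, and -0.063 with cyclic loess. Syne4, which encodes nesprin-4, the kinesin-binding nesprin of secretory cells and hair cells, had the highest difference (0.20 ± 0.20). Its intensity was 809 on the array labelled Mef2d KO and 665 on the WT array. Sun3, a SUN protein of the male germ line, had the lowest (-0.66 ± 0.29). It was dim, at 28.8 on the array labelled Mef2d KO and 42.8 on the WT array, and differed by -0.25 with cyclic loess or normexp background correction. Past the nesprins Syne1 to Syne4, the KASH genes Kash5, which acts in meiosis, and Lrmp differed by -0.48 and -0.022.

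The 14 genes of the inner membrane and lamina partners had a median of 0.027. They ranged from Nrm, which encodes the inner membrane protein nurim (-0.24 ± 0.20), to Ankle2, a LEM protein of nuclear reassembly (0.30 ± 0.21). The 5 genes of lamin processing had a median of 0.058, from Icmt, the methyltransferase of the lamin tail (0.029), to Rce1, the protease that trims it (0.14, and -0.012 with normexp background correction).

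The 5 partners of the lamin B receptor and sterol reductases had a median of 0.023. Tm7sf2, a sterol reductase related to Lbr, was at the low end (-0.095) and Cbx3, the heterochromatin protein HP1 gamma, at the high end (0.24). The 13 measured motor genes had a median of 0.0093. Kif5b, the kinesin heavy chain, was at the low end (-0.23 ± 0.20). Bicd2, the adaptor that brings dynein to the nuclear envelope, was at the high end. Its intensity was 7623 on the array labelled Mef2d KO and 4684 on the WT array, a difference of 0.62 ± 0.20.

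**Figure D5:**
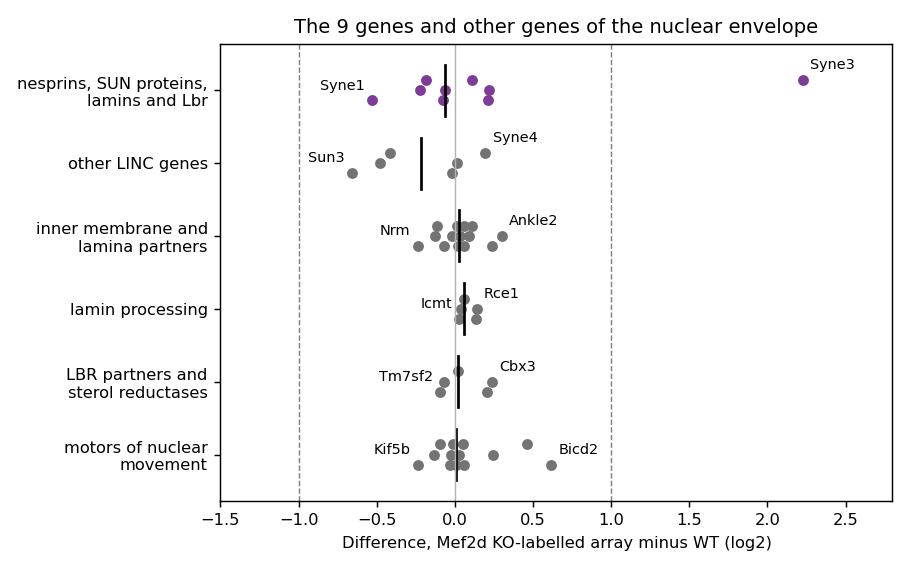
Differences (log2, array labelled Mef2d KO minus WT) of the 9 genes and of 43 other genes in 5 lists, each point 1 gene, with black lines at the list medians and the lowest and highest gene of each list named. Dashed lines mark 2-fold. Syne3 is the gene beyond them, and the other genes lie between -0.66 and 0.62.

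Some markers of cell types that a dissected retina can hold were past 2-fold on these arrays. Fewer cells of a type and less RNA per cell cannot be told apart in whole tissue. Lens markers were lower in 4 of 4 genes read on both arrays, Mip (-4.09), Crygn (-2.91), Crybb2 (-2.64) and Cryaa (-2.15). Lim2 was not well above background on the array labelled Mef2d KO. Against its own dim value there it was 6.60-fold lower, a difference of -2.72 ± 0.36 that was -1.08 with normexp background correction. The summed scaled intensity of the lens list, in multiples of the 75th percentile, was 22.5 on the array labelled Mef2d KO and 104 on the WT array. Most of it came from the Cryaa probe. Such sums weigh bright probes most and include dim ones, so they do not measure the amount of a cell type. Of 3 muscle markers read on both arrays 2 were lower (Tnnt1 by -2.04, Pygm by -1.98), and Acta1 (-0.68) stayed within 2-fold. The summed scaled intensities of the muscle list were 1.98 on the array labelled Mef2d KO and 7.50 on the WT array. Ckm was not well above background on either array. Myh1 was not well above background in WT and was higher on the other array by at least 1.14-fold. Of 5 cone markers 2, Arr3 (-5.36) and Pde6h (-2.42), were lower, while Gnat2 (-0.13), Opn1mw (-0.31) and Opn1sw (-0.53) stayed within 2-fold. The sums over the cone list were 42.3 on the array labelled Mef2d KO and 73.9 on the WT array.

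The remaining marker lists held few genes past 2-fold. Of 4 blood and B cell markers 1 was higher, Cr2, a complement receptor of B cells (2.06 ± 0.21), while the B cell gene Cd79a differed by -0.73. The summed scaled intensity of this list was 27.0 on the array labelled Mef2d KO and 20.9 on the WT array. Most of it came from the globin genes Hba-a1 (difference 0.29) and Hbb-b2 (0.49), not from the B cell genes. None of the 7 rod, 6 Mueller glia, 7 endothelial, 7 microglia or 4 measured pigment epithelium markers passed 2-fold. The medians were -0.041, -0.15, -0.29, 0.32 and 0.31 in that order, and Best1 was not well above background on either array. The summed scaled intensity of the microglia list was 10.9 on the array labelled Mef2d KO and 8.81 on the WT array. For the endothelial list it was 18.6 on the array labelled Mef2d KO and 20.0 on the WT array. The part of these cell types in the Syne3 and Syne1 differences was not tested.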

How the data were processed

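Both arrays were read with Agilent Feature Extraction 10.10.1.1, per the file headers. The authors deposited intensities from which that software had subtracted background within each array, with no scaling between arrays, per the file headers. Total RNA was amplified and labelled with Cy3, per the labels' protocols. The authors' series table multiplies these by 1.76 (array labelled Mef2d KO) and 1.88 (WT), constants of unstated origin, and is linear and uncentred with medians of 136.6 and 155.1.

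Here, the processed signal was divided by its 75th percentile over the 59305 non-control spots of an array, and log2 was taken. Outlier spots (126 on the array labelled Mef2d KO, 106 on the WT array) were left out, which lost 12 probes, and spots of a probe were averaged. Accessions without version were matched to symbols of GRCm38.p6, naming 27231 of 55669 probes. No probe position was used, since the design is on mm9. A probe counted as well above background when at least 50% of its spots were so flagged. A gene read on 1 array only was set against the higher of its own dim value and the lowest signal well above background on the dim array. Against the latter the fold is a bound, and against its own dim value (Lim2) it is an estimate. The number of arrays limits the precision.

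The genes, lists and limits were chosen with earlier results of these data known. All 9 genes are named with every probe, and from the 5 other nuclear envelope and movement lists any gene past 2-fold and the lowest and highest. The neighbours of Syne3, Cenpf, Kash5, Lrmp and the single cell type markers were named after their values were seen. One listed blood marker is not reported here. No genes are named for a like pattern, since 2 arrays give none. Scripts were tested on simulated data and used R 4.3.3, limma 3.58.1, Python 3.11.15, numpy 2.4.6, pandas 2.3.3 and matplotlib 3.10.9. Alternatives were other scalings, quantile normalization, cyclic loess, normexp background (offset 50, on median signals), the series table, the mean over probes, other filters and a 1.5-fold limit. Both arrays share a slide and a scan, so no slide block could be fitted.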

Additional observations from a re-analysis of the deposited data

How the results depend on the processing

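Each of the 9 genes was recomputed under 7 alternatives (3 scalings or normalizations besides median scaling, median scaling itself, normexp background, the series table and the mean over probes). Of these 63 values 62 lay within the scanner's error of the reported one, and Syne3, the only gene past 2-fold, kept its sign. Part of this was fixed in advance. Median scaling, the percentile taken over probes well above background and the series table are constant shifts smaller than the error. For the 5 genes with 1 probe, the mean over probes is the reported value itself. Only quantile normalization, cyclic loess, normexp background and, for genes with 2 probes, the mean over probes could move a value past the error. Syne3 with normexp background correction (1.92) moved by more than its error of 0.20 and stayed past 2-fold. The signs of Lmnb1 (0.11) and Lmnb2 (0.10) were positive with median scaling. The counts of 1 gene higher and 0 lower held under every alternative run, a 1.5-fold limit included. The medians of the 9 genes and of the 5 other lists stayed within the scanner's error under the alternatives run for them. For the constant shifts this too was fixed in advance. The background counts did move. Genes at least 2-fold lower, 281 as reported, were 170 after median scaling, 164 after quantile normalization, 162 after cyclic loess, 103 after normexp correction, 1739 with no filter on dim probes, 117 above a mean level of -3 and 881 at 1.5-fold. Genes at least 2-fold higher, 100 as reported, were 151, 157, 154 and 61 under the first 4 of these, 225 with no filter and 336 at 1.5-fold. The lower share of all genes past 2-fold, 73.8% as reported, became 53.0%, 51.1%, 51.3% and 62.8% under those same 4 settings in that order. The cause was not tested. No paired analysis was possible because each group holds 1 array. Leaving out a replicate was not possible for the same reason.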
